A study of Mus musculus with 5 samples.

Results

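The ChIP-seq peaks of SOX4 and of RELA, the p65 subunit of NF-κB, were compared in mouse fibroblast-like synoviocytes (FLS) after TNF. All peaks on chromosomes 1 to 19 and X of the SOX4 TNF list (543) and of the RELA TNF list (2070) were used, and a SOX4 and a RELA summit at most 50 bp apart were called shared. This gave 381 shared sites, 162 SOX4-only sites and 1689 RELA-only sites, in all 2232 sites, where the 4 peak lists of the series hold 3798 peaks. The FLS were passage cultures from wildtype C57BL/6 mice, treated with 10 ng/mL TNF for 16 h or left untreated. DNA of 3 cultures was pooled for each antibody and treatment, so each list comes from 1 library, and the peaks of all lists were called against 1 input library of untreated FLS. No test between the lists was therefore possible. The intervals given here, at 95%, cover counting error only.

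FLS are the fibroblasts of the joint lining, which produce lubricant and matrix in health and inflammatory mediators and proteases in arthritis. TNF releases RELA from its inhibitors in the cytoplasm, so that RELA enters the nucleus and binds kappaB elements. SOX4 belongs with SOX11 and SOX12 to the SoxC group, whose HMG box binds the minor groove at short elements around a CAA core. No other protein was measured, and the 2 antibodies were used on separate samples of chromatin, so a shared site says that both lists hold a summit there and not that both proteins sat on the same molecule.

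The windows of 61 bp around the summits that the results turn on are given first (mm10, plus strand). The shared sites with the highest SOX4 fold enrichment over background were far from any gene on chromosome 9, in an intron of Asb3 and upstream of Olfr1036. Their SOX4 and RELA fold enrichments were 29.0 and 30.9, 28.5 and 28.4, and 28.0 and 26.9.
Shared, chr9:91901123-91901183: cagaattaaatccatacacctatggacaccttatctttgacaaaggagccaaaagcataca
Shared, chr11:30888278-30888338: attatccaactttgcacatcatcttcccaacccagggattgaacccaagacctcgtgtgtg
Shared, chr2:86063943-86064003: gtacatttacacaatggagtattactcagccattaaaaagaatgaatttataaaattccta

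Of the SOX4-only sites, the highest lay at Prg4 and the second highest in a run of a 5-base repeat, far from any protein-coding gene. Neither window, nor any of the 3 shared windows above, held the SOX consensus (A or T, A or T again, then CAA, then A or T, then G).
SOX4 only, chr1:150465577-150465637: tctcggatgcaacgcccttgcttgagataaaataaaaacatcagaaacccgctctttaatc
SOX4 only, chr14:89668899-89668959: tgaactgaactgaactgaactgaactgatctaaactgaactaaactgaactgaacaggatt

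Shared and SOX4-only windows had some 9-base words in common that were rare in RELA-only windows. The word ATCAGTGCA or its reverse complement is in capitals in these 4 windows, of which the first 2 were shared and the others SOX4 only.
Shared, chr16:37735108-37735168: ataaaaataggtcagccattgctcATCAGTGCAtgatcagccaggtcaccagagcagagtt
Shared, chr15:83493916-83493976: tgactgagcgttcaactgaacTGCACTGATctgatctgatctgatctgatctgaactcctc
SOX4 only, chr16:49617513-49617573: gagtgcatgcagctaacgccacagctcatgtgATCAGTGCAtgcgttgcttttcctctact
SOX4 only, chr13:93738347-93738407: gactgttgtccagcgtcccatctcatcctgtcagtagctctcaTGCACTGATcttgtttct

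Of the 1689 RELA-only windows, 190 (11.2%) held a word of the primate Alu element, GGGATTACA, beside 10 of the 381 shared and 0 of the 162 SOX4-only windows. Alu and the mouse B1 element both derive from 7SL RNA, and B1 usually reads GGGATTAAA at this place.

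Some shared sites with much more RELA than SOX4 enrichment held tandem copies of a 5-base unit. The word GGAATGGAA or its reverse complement is in capitals in the 2 windows with the highest RELA to SOX4 ratio among those that hold it within the 61 bp, leaving out untranslated regions and 1 chromosome that was not considered for printing.
Shared, chr13:27206076-27206136: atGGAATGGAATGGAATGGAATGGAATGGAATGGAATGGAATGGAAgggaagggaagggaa
Shared, chr3:153123778-153123838: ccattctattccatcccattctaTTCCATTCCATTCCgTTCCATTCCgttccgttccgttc

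The distances between SOX4 and RELA summits fell into separate ranges. The shared pairs lay 0 to 32 bp apart with a median of 4 bp (3 to 5), and 69 of the 381 pairs had their summits on the same base. The RELA summit had the higher coordinate at 177 pairs and the lower one at 135. The median SOX4-only summit was 647 kb (484 to 797) from the nearest RELA summit. Between 32 bp and 1505 bp there were only 4 SOX4 summits, at 53 bp, 141 bp, 232 bp and 260 bp.

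**Figure D1:**
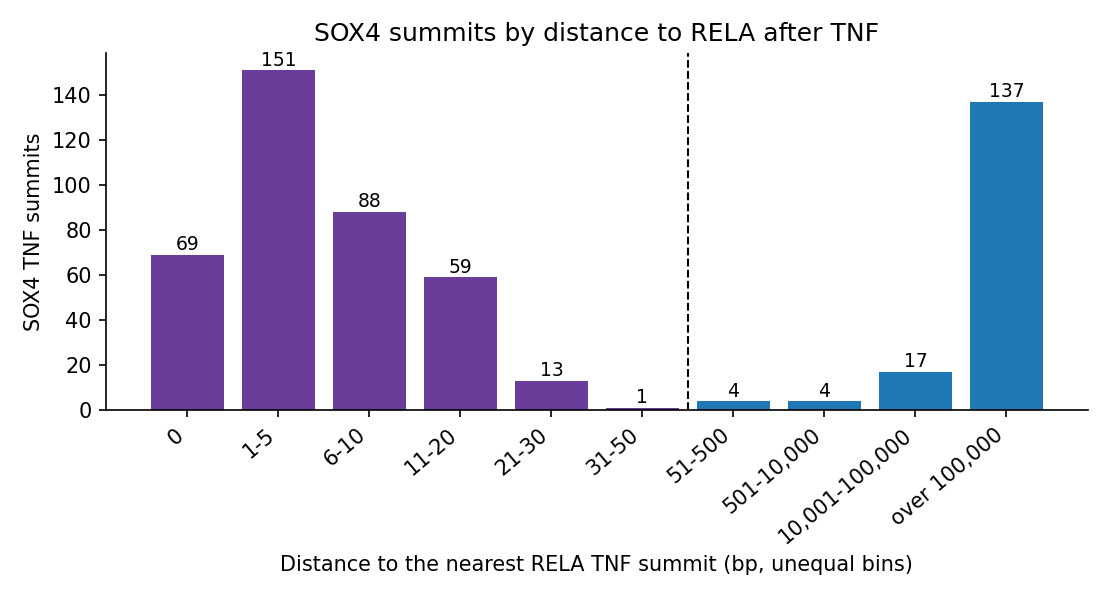
Number of SOX4 TNF summits (y axis) by the distance to the nearest RELA TNF summit (x axis, unequal bins in bp), with shared sites in purple, SOX4-only sites in blue and the 50 bp limit dashed. Of the 543 summits, 381 lie left of the limit, 4 lie at 51 to 500 bp and 137 lie more than 100 kb away.

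The SOX4-only sites just outside the limit were in regions where the RELA list also had a peak. The site at 53 bp, in an intron of Ano2, had a SOX4 fold enrichment of 6.18 and lay inside a RELA peak 358 bp wide with a fold enrichment of 35.4. The site at 141 bp was in Sox4 itself, next to a shared site. The site at 232 bp was in Rn7s2, a gene of 7SL RNA, where the SOX4 fold enrichment was 5.79 and that of the RELA peak 27.8. The pair furthest apart inside the limit, 32 bp, was 7141 bp upstream of Olfr855, an olfactory receptor gene, with fold enrichments of 13.8 for SOX4 and 24.6 for RELA.

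SOX4 enrichment was lower at SOX4-only sites than at shared sites. The median SOX4 fold enrichment was 7.13 (6.65 to 7.13) at the 162 SOX4-only sites and 9.98 (9.51 to 10.5) at the 381 shared sites. A SOX4 fold enrichment of 10 or more was found at 47.2% of the shared sites (42.3% to 52.3%) and at 2 of the 162 SOX4-only sites (1.23%, 0.339% to 4.39%). Those 2 were the Prg4 site at 26.1 and the site on chromosome 14 printed above at 10.4. In the RELA list the median was 11.5 (10.98 to 12.5) at shared sites and 9.98 at RELA-only sites, and 26.8% of the shared sites (22.6% to 31.4%) but 8.82% of the RELA-only sites (7.56% to 10.3%) had a RELA fold enrichment of 20 or more.

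The number of fragments that overlapped at a summit, the pile-up, could be recovered for these lists. For all 543 SOX4 and all 2502 RELA TNF peaks, the latter including chromosome Y, a single whole number of fragments gave both the listed fold enrichment and the listed p. At most peaks the background was the genome-wide one, 1.104 fragments for SOX4 (65.6% of peaks) and 1.004 for RELA (78.1%). SOX4 pile-ups had a median of 15.5 fragments (15 to 16) at SOX4-only sites and 22 (21 to 23) at shared sites. RELA pile-ups had a median of 21 fragments (20 to 21) at RELA-only sites and 24 (23 to 26) at shared sites, where the upper quartile was 45 and the highest was 98.

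These small pile-ups limit what a SOX4-only call says. The lowest pile-up called over the genome-wide background was 8 fragments in either TNF list, and 5% of the RELA peaks over that background had at most 13. At 106 of the 162 SOX4-only sites (65.4%, 57.8% to 72.3%) the exact Poisson lower bound of the SOX4 pile-up was above 8, and at 13 (8.02%, 4.75% to 13.2%) it was above 13. At RELA-only sites the bound was above 8 in 92.1% (90.7% to 93.3%) and above 13 in 46.1% (43.8% to 48.5%). The pile-up of the other protein at a site it was not called at is not in the lists, so a site of 1 list only was a site not called in the other, at this depth.

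**Figure D2:**
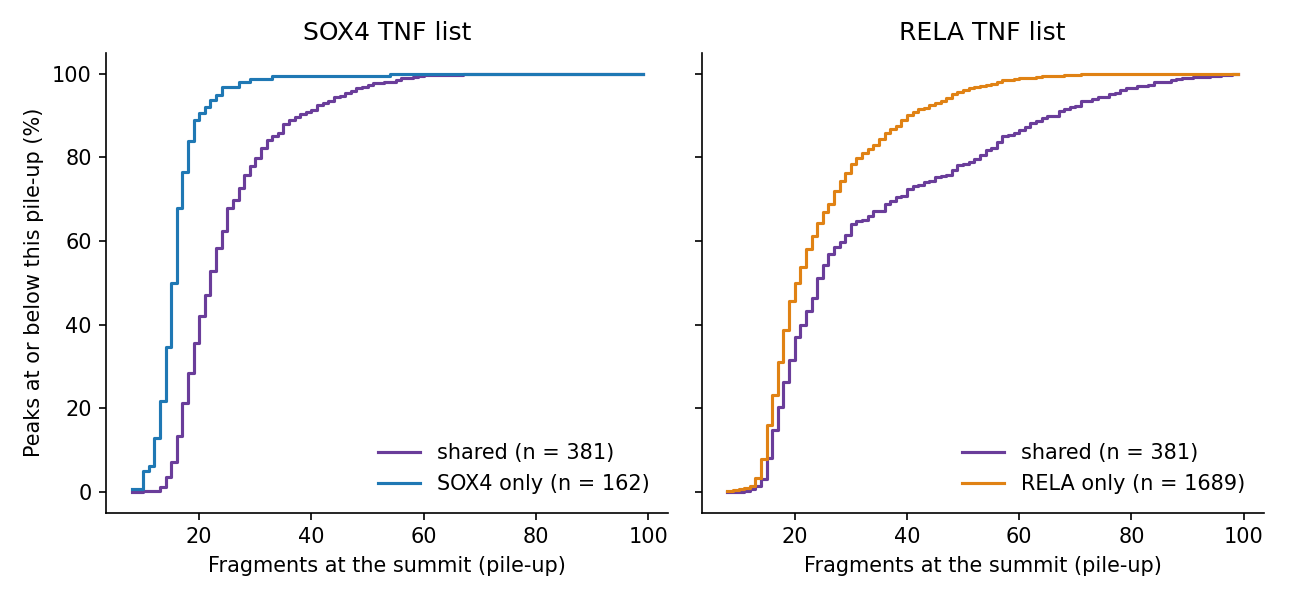
Cumulative share of peaks (y axis, %) by the pile-up at the summit in fragments (x axis), for the SOX4 TNF list at the left and the RELA TNF list at the right. The SOX4-only curve (blue, n = 162) lies left of the shared curve (purple, n = 381), with medians of 15.5 and 22 fragments, and the shared RELA curve has a long upper part above 40 fragments.

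Over the shared sites as a whole the 2 fold enrichments rose together, but not within the sites of highest RELA enrichment. Spearman's rho over the 381 sites was 0.56, and Pearson's r of the log2 values was 0.56. At the 279 sites with a RELA fold enrichment under 20 rho was 0.63, and at the 102 with 20 or more it was -0.03. A split by RELA enrichment also narrows its range. The sites share the input library and their sequence, and sites of a library are not replicates, so the correlation is given as a description. The RELA fold enrichment was the higher one at 258 sites (67.7%), with a median log2 ratio of RELA to SOX4 of 0.15 (0.10 to 0.20) and a range from -0.83 to 2.31.

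The plot of the fold enrichments shows a main group of sites along the line of equal enrichment and a second group well above it. With an exact interval for the share of RELA in the summed pile-ups, RELA was higher beyond counting error at 87 of the 381 sites (22.8%, 18.9% to 27.3%), and SOX4 at 0 (upper bound 0.998%). At the other 294 sites the interval held equal enrichment. The 87 sites had median fold enrichments of 10.6 for SOX4 and 29.9 for RELA, and the 294 had 9.77 and 9.98. Of the 87 sites, 75 (86.2%) had a soft-masked summit base, which marks repeats in the reference, against 161 of the 294 (54.8%). Of the 87 sites, 45 (51.7%) held GGGATTACA, GGAATGGAA or a second Alu word, GGAGGCTGA, against 1 of the 294 (0.340%). These words were chosen after the windows had been looked at, so the counts are a description.

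**Figure D3:**
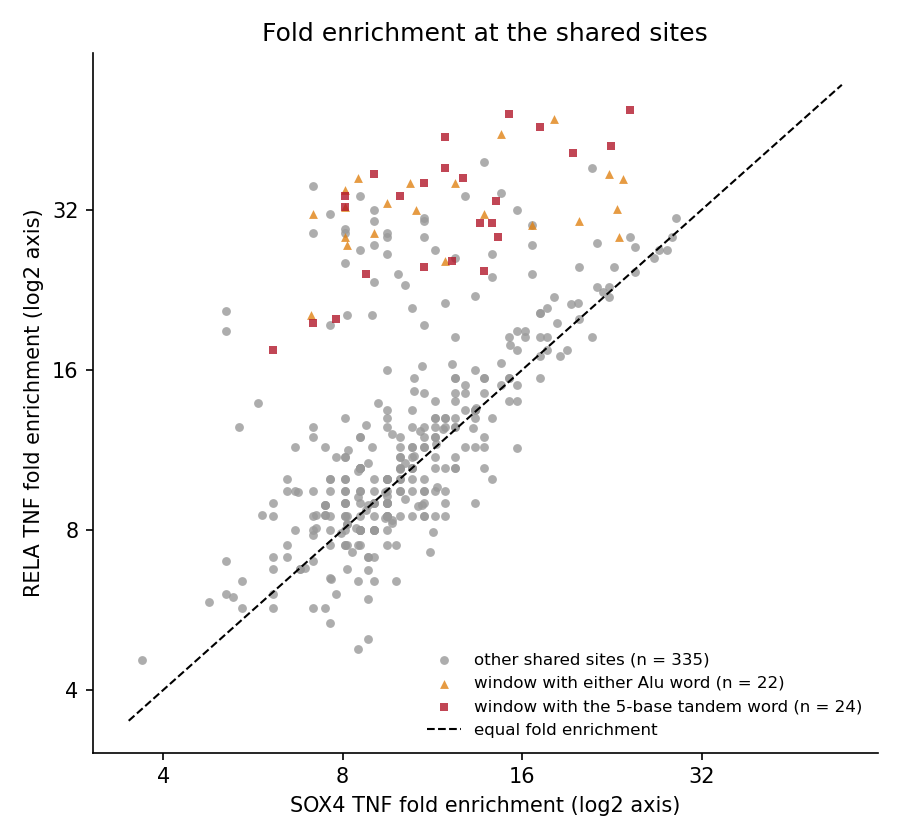
RELA TNF fold enrichment (y axis, log2) against SOX4 TNF fold enrichment (x axis, log2) at the 381 shared sites, with equal enrichment dashed, windows with an Alu word as orange triangles (n = 22) and windows with the tandem word GGAATGGAA as red squares (n = 24). All marked windows lie above the line, and most grey points lie along it.

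At the 46 sites with any of the 3 words, RELA was higher at all 46, and the median fold enrichments were 11.9 for SOX4 and 32.4 for RELA. At the 335 sites without them the medians were 9.68 and 10.7, the median log2 ratio was 0.07 and Spearman's rho was 0.62. Among summits on bases that are not soft-masked (145), rho was 0.60 and the median log2 ratio 0.07. The part of repeats in the RELA to SOX4 ratio was not tested.

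The highest shared SOX4 sites had nearly equal RELA enrichment. An intron of Add1, which encodes the cytoskeletal protein adducin 1, had fold enrichments of 27.1 for SOX4 and 26.9 for RELA, 103 bp from a start site. The site 41735 bp upstream of Fstl1, which encodes follistatin-like 1, a secreted glycoprotein of stromal cells, had 26.6 and 25.9. Cyp3a13, a cytochrome P450 gene, had 24.7 and 24.4 at a site 2824 bp upstream. The pile-ups at these sites were 56 and 53, 55 and 51, and 51 and 48 fragments. An intron of AI481877 had fold enrichments of 24.7 and 27.2, and a site upstream of Prl5a1, a gene of the prolactin family, had 24.2 and 28.4. The other 2 of the 10 highest SOX4 sites had more RELA beyond counting error, among them an intron of Fam227b with 23.6 and 36.6 and an Alu word in its window.

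The sites with the highest RELA enrichment were less even. The highest, between genes on chromosome 11, had 49.4 for RELA and 24.2 for SOX4, and its window held the tandem word. The second highest, upstream of 4930517M08Rik, had 48.4 for RELA and 15.2 for SOX4 and held the same word. An intron of Plxdc2 had 47.4 for RELA and 18.1 for SOX4, with an Alu word in its window. Sites upstream of 1700020N01Rik and within Zfp949 followed, with 45.9 and 44.4 for RELA and 17.1 and 14.7 for SOX4. The former window held the tandem word and the latter an Alu word. The largest RELA to SOX4 ratio, 2.31 on the log2 scale, was in an intron of Dgki, a diacylglycerol kinase gene, with 70 RELA and 20 SOX4 fragments. A site without a gene followed at 2.14, and introns of Fut8, a fucosyltransferase gene, and Rin2 at 2.11 each. Each of these windows held an Alu word, and that of Dgki held neither an Alu word nor the tandem word. The fifth, 35741 bp upstream of Prl3b1, a prolactin family gene, had 2.07 and held the tandem word.

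The intervals of the lowest ratios all held equal enrichment. The site 18558 bp upstream of Col6a3, a collagen VI gene, had fold enrichments of 11.2 for SOX4 and 7.27 for RELA, with 32 and 26 fragments. The shared site in Sox4 had 8.82 for SOX4 and 4.99 for RELA, with 25 and 13 fragments, a log2 ratio of -0.82. The lowest ratio, -0.83, was 10334 bp upstream of the predicted gene Gm11852. An intron of Plcl1 had fold enrichments of 9.84 for SOX4 and 6.41 for RELA, and a site upstream of Gm38154 had 8.82 and 5.93.

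Of the 10 highest RELA-only sites, 9 had a soft-masked summit, near the 75.1% of all RELA-only sites, and the other was in an intron of Jph1, which encodes junctophilin 1, with a RELA fold enrichment of 34.4. The highest, 36.9, was on chromosome 13 without a protein-coding gene, and a site upstream of Malt1 followed with 35.7. Introns of Ano2, a chloride channel gene, Cyp27a1, a sterol hydroxylase gene, Cep57l1, Ago4, an Argonaute gene, and Zfp106 had 35.4, 33.4, 33.4, 31.9 and 31.4. Sites without a protein-coding gene on chromosomes 10 and 15 had 35.4 and 31.9.

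Most sites of every class lay in introns or in the 50 kb upstream of a gene. Introns held 43.8% of the shared summits (38.9% to 48.9%), 37.0% of the SOX4-only summits (29.98% to 44.7%) and 48.4% of the RELA-only summits (46.0% to 50.8%). The upstream class held 28.3% (24.1% to 33.1%), 34.0% (27.1% to 41.5%) and 29.3% (27.2% to 31.5%). Coding sequence held 2 shared, 4 SOX4-only and 12 RELA-only summits, and untranslated regions held 5, 5 and 36. With upstream regions given priority over gene bodies, that class held 56.2%, 60.5% and 64.2% of the summits and introns held 20.2%, 16.0% and 17.5%, so the order of the classes turned in both.

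Few sites of any class lay at promoters. The share of the genome that lies so near a start site was not computed, so neither depletion nor excess can be read from this. A start site of a protein-coding gene was within 500 bp of 11 shared summits (2.89%, 1.62% to 5.10%), 5 SOX4-only summits (3.09%, 1.33% to 7.02%) and 39 RELA-only summits (2.31%, 1.69% to 3.14%). The median distance was 37.9 kb (28.1 to 46.0) for shared, 29.4 kb (19.7 to 53.2) for SOX4-only and 23.3 kb (20.3 to 26.6) for RELA-only summits.

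The 11 shared promoter sites included 4 genes that were picked here for their known roles, after their values were seen. Lpl, lipoprotein lipase, had a summit 4 bp from a start site with fold enrichments of 10.5 for SOX4 and 10.5 for RELA. S100a8, a calcium-binding protein of inflammation, had 8.56 and 12.0. Egln1, a prolyl hydroxylase that marks HIF for degradation, had 9.51 and 8.48. Il15, a cytokine of T and NK cells, had 6.45 and 9.98 in its coding sequence, 484 bp from a start site.

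The 5 SOX4-only promoter sites included Prg4, Gpsm3, Slc39a11 and Mbtps1. Prg4 encodes lubricin, the lubricant of the joint surface and a marker of lining FLS. Its peak (chr1:150465558-150465710) was 153 bp wide, against a median of 51 bp for SOX4-only peaks, and had 54 fragments (40.6 to 70.5). The summit lay 9 bp upstream of the start of its shorter transcripts, inside the gene span of longer ones. No RELA TNF summit was nearer than 167 kb, and the SOX4 untreated list had a summit 6 bp away with a fold enrichment of 19.02. Gpsm3, a modulator of G protein signalling, had a fold enrichment of 9.03. Slc39a11, a zinc transporter, had 8.56, and Mbtps1, the site-1 protease that cleaves SREBP and ATF6, had 7.61. These last 3 rested on 15 to 18 fragments each.

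Of the 39 RELA-only promoter summits, 33 were on soft-masked bases, against 3 of the 11 shared and 2 of the 5 SOX4-only ones. Over all sites the soft-masked shares were 75.1%, 61.9% and 42.6%, so the counts of RELA-only and SOX4-only promoter summits were near those of their classes. Edn1, which encodes the vasoconstrictor endothelin 1, had a RELA fold enrichment of 6.99 with 13 fragments, 46 bp upstream of its start and outside soft-masked sequence. Sumo3, a ubiquitin-like modifier, had 23.9, and Carmil3 had 20.96, both on soft-masked bases.

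The shared sites were assigned to 321 protein-coding genes, in the body or up to 50 kb upstream, the SOX4-only sites to 133 and the RELA-only sites to 1723. Of the 21755 protein-coding genes on these chromosomes, these are 1.48%, 0.611% and 7.92%. No protein-coding gene had sites of all 3 classes. Of the 133 genes with a SOX4-only site, 108 had no site of another class, 9 also had a shared site and 16 also had a RELA-only site. Of the 321 genes with a shared site, 34 (10.6%) also had a RELA-only site, which is 1.97% of the 1723. The median gene length was 21.4 kb for the 108 genes, 47.7 kb for genes with a shared site and 35.2 kb for genes with a RELA-only site, against 17.4 kb for all protein-coding genes. Longer genes offer more room for a summit in the body.

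Genes of 8 lists of pathways were read against these shares. Of their 367 members, 13 had a shared site (3.54%, 2.08% to 5.97%), 4 a SOX4-only site (1.09%, 0.425% to 2.77%) and 38 a RELA-only site (10.4%, 7.64% to 13.9%). The median length of the members was 38.1 kb, against 17.4 kb for all protein-coding genes. The lists were chosen with earlier results of these data known and hold genes that the study names as bound. Their shares are therefore a description and no support for an excess.

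The NF-κB list of 40 genes had 7 with a RELA-only site (17.5%), 1 with a shared site (2.5%) and 0 with a SOX4-only site. The shares of all protein-coding genes were 7.92%, 1.48% and 0.611%, so 0 of 40 says little. The median length of the list was 28.8 kb, against 17.4 kb for all protein-coding genes. The RELA-only sites were assigned to adaptors of the TNF receptor family, to inhibitors of NF-κB, to the receptor and to Malt1, some from a distance. Traf2 had a RELA fold enrichment of 26.7 at 5161 bp upstream, and Traf3 had 19.5 at 26390 bp upstream. Traf1 had 10.98 at 41751 bp upstream, in coding sequence of another gene. Nfkbib and Nfkbie, which hold NF-κB in the cytoplasm, both had 13.5, and Tnfrsf1a, the TNF receptor 1 gene, had 8.88 at 30904 bp upstream. Malt1, the paracaspase gene, had a shared site with 13.3 for SOX4 and 22.1 for RELA and a RELA-only site with 35.7. The RELA-only summits assigned to Traf1 and Traf3 were outside soft-masked sequence. Those of the other listed genes were on soft-masked bases, as were 75.1% of all RELA-only summits.

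Of 40 cytokine, chemokine and adhesion genes, 1 had a shared site (2.5%) and 2 had a RELA-only site (5%), near the 1.48% and 7.92% of all protein-coding genes, with a median length of 9.28 kb. Il15 had the shared site, and Edn1 and Il1r1, the interleukin 1 receptor gene, had RELA-only sites with fold enrichments of 6.99 and 17.5. Of 41 genes of MAP kinases and AP-1, 5 had a RELA-only site (12.2%) and 2 a shared site (4.88%). The median length of this list was 28.1 kb, against 17.4 kb for all protein-coding genes. Map3k5 had 17.0, Map3k3 had 14.5, Map3k4 had 9.97 and Mapk8, the kinase JNK1, had 9.69. Shared sites were assigned to Junb, an AP-1 subunit gene, and to Map3k8, a kinase gene that acts downstream of TNF. The Junb site, 43932 bp upstream, had 12.4 for SOX4 and 10.98 for RELA. The Map3k8 site, 15728 bp upstream, had 10.9 and 11.5.

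Of 60 chromatin coregulators, 12 had a RELA-only site (20%) and 3 a shared site (5%), beside 7.92% and 1.48% of all protein-coding genes. The median length of this list was 77.9 kb, so its shares cannot be read against genes of 17.4 kb. Ncoa1, a coactivator of nuclear receptors, had a shared site with 14.7 for SOX4 and 34.4 for RELA and 4 RELA-only sites with fold enrichments from 8.19 to 24.9. Setbp1 had 15.7 and 31.9, and Kat6b, an acetyltransferase gene, had 10.9 and 8.90. Suz12, a Polycomb subunit gene, had a RELA-only site with 17.5 at 41053 bp upstream. Hdac8, a deacetylase gene, had one with 14.0 in an intron.

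In the TGF-beta, BMP and Wnt list of 63 genes, 2 had a shared site (3.17%), 1 a SOX4-only site (1.59%) and 6 a RELA-only site (9.52%). The shares of all protein-coding genes were 1.48%, 0.611% and 7.92%. The median length was 61.1 kb for this list and 17.4 kb for all protein-coding genes, so the counts say little. Tcf7l2, a transcription factor of the Wnt pathway, had 10.9 for SOX4 and 8.48 for RELA in an intron. Tgfbr3, a co-receptor for TGF-beta, had a shared site with 9.91 and 24.3 at 22265 bp upstream and a SOX4-only site with 5.10. Wnt5b had a RELA-only site with 14.0, and Smad4 had one with 13.0. The list of 54 genes of the cytoskeleton, adhesion and migration, with a median length of 77.05 kb, had 2 with shared sites (3.70%), Diaph2 and Parva. It had 5 with RELA-only sites (9.26%), of which Rac1, a small GTPase gene, had 22.5 at 37366 bp upstream. The 50 genes of matrix and proteases, with a median length of 37.45 kb, had 1 of each class (2% each), namely Col6a3, Prg4 and Nid1.

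Of the 19 SOX genes, Sox4 and Sox11 had sites. Sox4 had the shared site given above and a SOX4-only site with 4.96 and 10 fragments, both on the 3' side of its coding sequence. Sox11 had a SOX4-only site with 8.56 and 17 fragments, 129 bp wide, also on the 3' side of its coding sequence. Of the 19, 0 had a RELA-only site, in a list with a median length of 4.83 kb and beside 7.92% of all protein-coding genes, so this count says little.

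Of the 18 FLS markers, 1 had a SOX4-only site (5.56%), 1 a RELA-only site (5.56%) and 0 a shared site. The shares of all protein-coding genes were 0.611%, 7.92% and 1.48%, so these counts say little. The SOX4-only site was at Prg4, and the RELA-only site was at Pdgfra, with 8.98 at 32732 bp upstream. Of the 21 markers of other joint cells, 0 had a site of any class, beside 2118 of the 21755 protein-coding genes, so a count of 0 in so short a list says little. A peak list says nothing on the level of these genes.

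The study's list of TNF-responsive genes that depend on SoxC was taken from its RNA-seq of other cultures. Those were FLS with floxed Sox4, Sox11 and Sox12, infected with GFP or Cre adenovirus, and not the wildtype FLS of the peak lists. Of its 481 protein-coding genes found in the annotation, 13 had a shared site (2.70%), 1 a SOX4-only site (0.208%) and 56 a RELA-only site (11.6%). The shares of all protein-coding genes were 1.48%, 0.611% and 7.92%. Genes are not separate sites, as Junb and Trir were counted from 1 shared summit. The shares are a description, and an excess was not tested. The SOX4-only site was that at Gpsm3, 39628 bp upstream of the listed gene Prrt1. Shared sites at listed genes included Kat6b, Junb, Ncoa1, Tcf7l2, Hmcn1, with 11.4 for SOX4 and 8.48 for RELA, and Lama2, a laminin gene, with 6.12 and 17.5. The list also holds the 7SL RNA genes Rn7s1 and Rn7s2. Their shared sites had 20.9 and 38.4, and 21.4 and 27.8, but reads of such near-identical copies cannot be placed with certainty.

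Few protein-coding genes had more than 1 SOX4-only site. Of the 162 sites, 90 (55.6%, 47.9% to 63.0%) were assigned to a protein-coding gene, 38 to other genes only and 34 (20.99%, 15.4% to 27.9%) to none. The shares assigned to a protein-coding gene were 59.3% of the shared sites (54.3% to 64.1%) and 67.3% of the RELA-only sites (65.0% to 69.5%). Cacna1e, a calcium channel gene, the zinc finger gene Zfp987 and C130026I21Rik each had 2 SOX4-only summits.

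Below Prg4, the SOX4-only sites at protein-coding genes formed an even series from 9.54 downwards. Dock5, an activator of the small GTPase Rac, had 9.54 at 19706 bp upstream, with 22 fragments (13.8 to 33.3). Gpsm3, Myom2, Sgip1 and Ky were among the next. Myom2, a sarcomere protein, had 9.03 in its coding sequence, Sgip1, an endocytosis adaptor, had 9.03 in an intron, and Ky had 9.03 in an intron. Cars, which encodes the cysteine tRNA synthetase, had 8.56 in an intron, 1592 bp from a RELA summit. Agbl4, Ubxn2b and Gnl1 also had 8.56, in an intron, upstream and on the 3' side of the coding sequence, as did Usp17la, a deubiquitinase gene, in its coding sequence and 5730522E02Rik in an intron. Thsd1, a thrombospondin domain gene, had 8.39 in an intron with 18 fragments (10.7 to 28.4). Iqch, Pot1a, a telomere protein gene, Garem1, an adaptor of growth factor signalling, and Golph3, a Golgi protein, had 8.08, as did further sites tied with them. The intervals of the pile-ups of all these sites but Prg4 overlapped, so their order carries no information. Of the 5 highest sites assigned to no protein-coding gene, the highest was the tandem repeat site on chromosome 14 with 10.4, and the others, on chromosomes 4, 11, 16 and 1, had 9.51 to 9.98, with a site on chromosome 9 tied at 9.51.

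Most shared sites also had a summit in a list of untreated FLS, and most SOX4-only and RELA-only sites did not. A summit of the RELA untreated list lay within 50 bp of 78.7% of the shared sites (74.4% to 82.55%), and one of the SOX4 untreated list of 41.2% (36.4% to 46.2%). Both lists had one at 149 sites (39.1%), and neither at 73 (19.2%, 15.5% to 23.4%). Of the 162 SOX4-only sites, 4 (2.47%, 0.964% to 6.18%) had a SOX4 untreated summit and 20 (12.3%, 8.14% to 18.3%) had a RELA untreated summit. Of the 1689 RELA-only sites, 43 (2.55%, 1.90% to 3.41%) had a RELA untreated summit and 2 had one of SOX4. The untreated lists are shorter, with 192 SOX4 and 561 RELA peaks, so a missing summit there is also a matter of what was called.

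**Figure D4:**
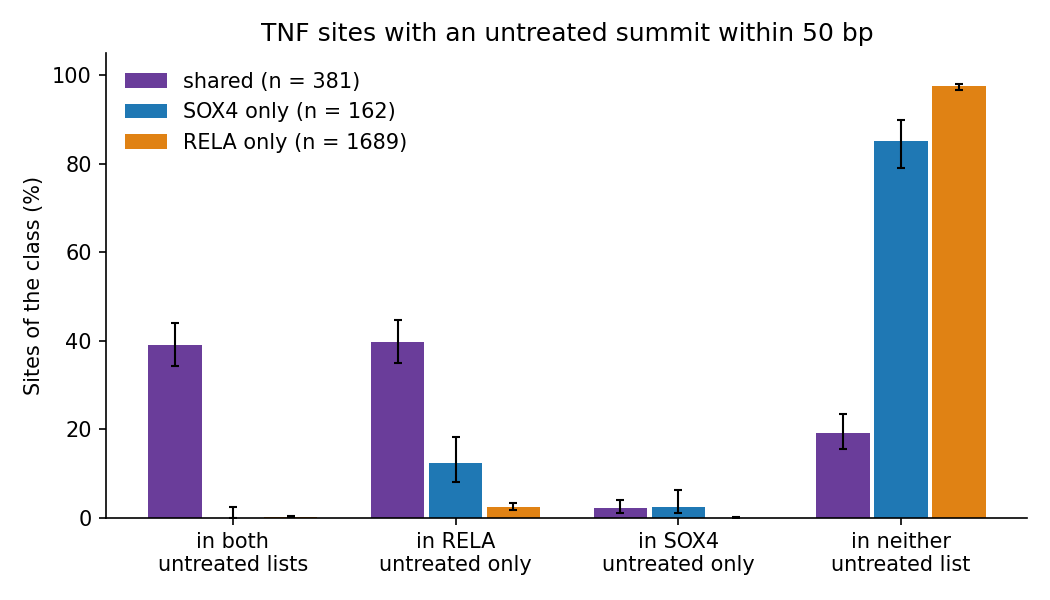
Share of the sites of each class (y axis, %) with an untreated summit within 50 bp in both untreated lists, in 1 of them or in neither (x axis), with Wilson 95% intervals as bars. Most shared sites (purple) have a RELA untreated summit, and 85.2% of SOX4-only sites (blue) and 97.5% of RELA-only sites (orange) have neither.

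The 4 SOX4-only sites with a SOX4 untreated summit were Prg4, an intron of Elmod3 with 6.38 after TNF and 5.65 without, and 2 sites without a gene, at 8.08 each after TNF. The 20 with a RELA untreated summit were sites where RELA was called without TNF but had no summit within 50 bp with it. They included introns of Sgip1, where RELA had 6.87 untreated and SOX4 9.03 after TNF, and Csrnp3 with 6.39 and 7.55, and a site upstream of Adamts20 and Irak4 with 7.39 and 7.80. The sites at 53 bp and 232 bp from a RELA TNF summit were also among the 20. RELA pile-ups after TNF at these places are not in the lists.

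Shared sites that were also listed without TNF had the higher enrichment after it. At the 149 sites found in all 4 lists the median fold enrichments after TNF were 13.3 for SOX4 and 16.0 for RELA, with a rho of 0.64 between them. The 151 sites with a RELA but no SOX4 untreated summit had 9.51 and 10.5, with a rho of 0.43. The 73 with neither had 8.08 and 8.98, with a rho of 0.18. The range of the values also narrows along this order.

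The classes differed in repeats more than in consensus words. A soft-masked summit base was found at 61.9% of the shared sites (57.0% to 66.7%), 42.6% of the SOX4-only sites (35.2% to 50.3%) and 75.1% of the RELA-only sites (73.0% to 77.1%). The median GC content of the 101-bp windows was 39.6% for shared, 41.6% for SOX4-only and 45.5% for RELA-only sites. The SOX consensus stood in 19.4% of the shared windows (15.8% to 23.7%), 15.4% of the SOX4-only windows (10.7% to 21.8%) and 14.1% of the RELA-only windows (12.5% to 15.8%). Windows 2 kb to either side held it in 16.7%, 16.7% and 14.7%, and it stood in 15.4% of all 101-bp windows of these chromosomes. At summits outside soft-masked sequence the shares were 15.2%, 15.1% and 16.0%, so the order of the classes turned. A kappaB consensus (GGG, then A or G, any base, A or T, C or T, C or T again, then CC, on both strands) stood in 2 shared, 1 SOX4-only and 8 RELA-only windows, which is 0.525%, 0.617% and 0.474%, against 0.697% of all windows. Windows 2 kb away held it in 0.394%, 0.617% and 0.681%. No class thus had an excess of the kappaB consensus beyond counting error. Whether the sites are bound through such elements was not tested, and a single window without these letters does not settle binding at that site.

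**Figure D5:**
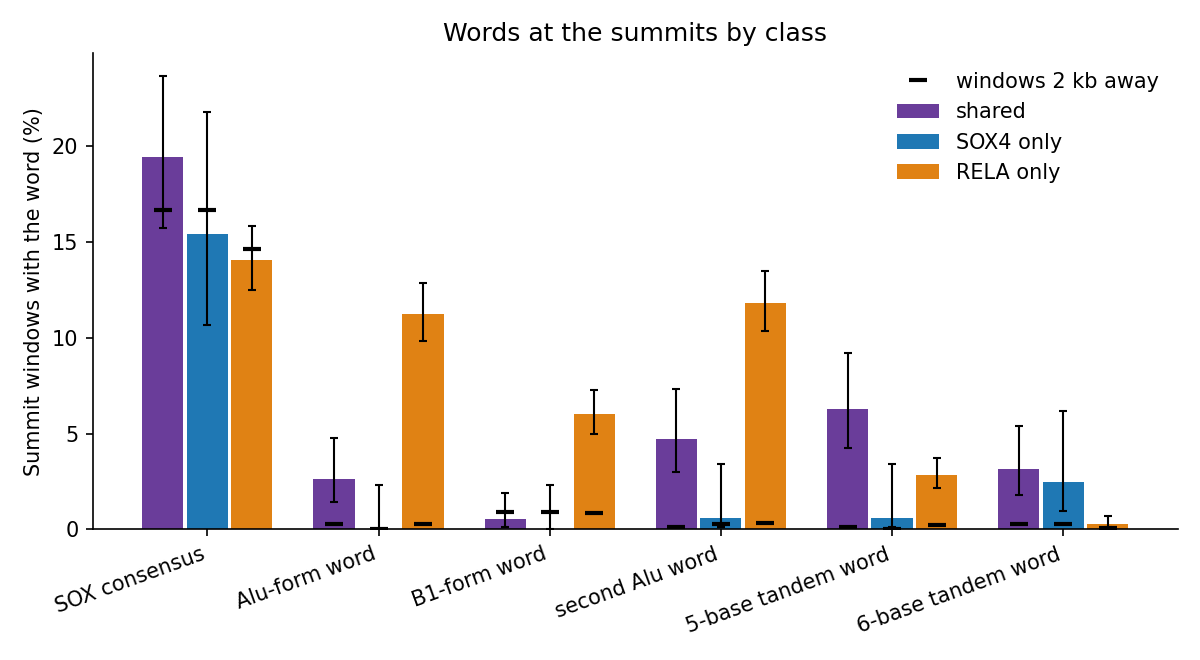
Share of 101-bp summit windows that hold a word on either strand (y axis, %) by class, with Wilson 95% intervals, and black dashes for the windows 2 kb away. The Alu words stand mainly in RELA-only windows (orange, 11.2% and 11.8%), the tandem word GGAATGGAA has its highest share in shared windows (purple, 6.30%, beside 2.84% of RELA-only windows), and the SOX consensus in all classes at about the level of the dashes.

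The Alu word GGGATTACA stood in 190 of the 1689 RELA-only windows (11.2%, 9.83% to 12.8%), 10 of the 381 shared windows (2.62%, 1.43% to 4.76%) and 0 of the 162 SOX4-only windows (upper bound 2.32%). The windows 2 kb from RELA-only summits held it in 0.266%, and all windows of the genome in 0.144%. The B1 form GGGATTAAA stood in 6.04% of the RELA-only windows (4.9997% to 7.28%), 0.525% of the shared windows and 0 of the SOX4-only windows, and in 0.662% of all windows. In the genome the B1 form was thus more frequent than the Alu form, and in RELA-only windows the Alu form was the more frequent. GGAGGCTGA stood in 11.8% of the RELA-only, 4.72% of the shared and 0.617% of the SOX4-only windows. The part of these repeats in the RELA-only class was not tested.

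GGAATGGAA stood in 6.30% of the shared windows (4.27% to 9.20%), 2.84% of the RELA-only windows and 0.617% of the SOX4-only windows, against 0.164% of all windows. The 24 shared sites with it had medians of 12.0 for SOX4 and 33.6 for RELA, with log2 ratios from 0.83 to 2.07. GAACTGAAC stood in 3.15% of the shared windows (1.81% to 5.42%), 2.47% of the SOX4-only windows (0.964% to 6.18%) and 0.296% of the RELA-only windows, against 0.218% of all windows. ATCAGTGCA stood in 2.10%, 2.47% and 0.118%, against 0.0653%. For these last 2 words, shared sites had no excess of RELA, with median log2 ratios of 0.16 and -0.01, close to the 0.15 of all shared sites and below it. A further word, AATGCAAAT, stood in 3.41% of shared, 1.23% of SOX4-only (0.339% to 4.39%) and 0.947% of RELA-only windows, against 0.419% of all windows. The SOX4-only share rests on 2 of 162 windows, beside 4 for each of the 2 words before. Whether the words differ there cannot be told from these counts. Windows 2 kb from SOX4-only summits held it in 1.54%.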

How the data were processed

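ChIP-seq with antibodies against SOX4 and RELA was performed on FLS with and without TNF, with 1 library per condition. Single-end 50-base reads were aligned to mm10 by the authors, and MACS, run within Strand NGS, called the peaks against 1 untreated input. Its p cutoff was 1e-05 and its fragment length 300, per the file headers. The deposited P and Q scores are the −log10 of the p-value and q-value, and the deposited fold change is a ratio of pile-up to background. How reads that map to several places were treated is not given in the sources used here. All peaks were used as listed, with coordinates taken as counted from 1. Total depth per library is not in the lists.

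From these, summit distances, classes, genes (GENCODE vM21, in the body or up to 50 kb upstream) and words in 101-bp windows were computed. Pile-ups were the whole numbers n for which (n + 1)/(background + 1) gave the fold and the Poisson tail gave p within 1e-04 on the −log10 scale. This held for all peaks of both TNF lists and the SOX4 untreated list, and for 0 of the 561 RELA untreated peaks. Shares have Wilson intervals and medians intervals from order statistics. The steps were tested on simulated data. Of 638 listed SoxC-dependent genes, 617 matched.

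Named sites were those of highest fold or ratio in each class and all pathway list members with a SOX4-only site. Of the other list members, those of highest fold were named. The members and lists were chosen with earlier results of these data known. The pile-ups, the 9-base words and the sites described within 500 bp of a start were chosen after seeing the data. Tools were statsmodels 0.14.6, pysam 0.24.0, scipy 1.17.1, pandas 2.3.3 and numpy 2.4.6 under Python 3.11.15. A few items that met the rule for named genes or printed windows are not reported here.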

Additional observations from a re-analysis of the deposited data

Results flagged for a closer look

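The RELA TNF list held 432 peaks on chromosome Y, outside the compared chromosomes, where the SOX4 TNF list held 0. Their fold enrichments ranged from 4.49 to 23.0 with a median of 7.98, and 2 of the 432 windows (0.463%) held the Alu word GGGATTACA.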

How the results depend on the processing

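Of 95 values under alternatives for 34 results, 50 stayed within counting error of the value reported (or within 1.5 times for counts and 0.1 for the correlation), and 45 moved. Most are single shares or counts, which have no direction of their own, and some orders between classes turned, as given below. No paired analysis was possible because each TNF list rests on its own single pooled library. With 1 library a side, no alternative replaces a replicate, and the cause of the moves was not tested except where fewer peaks or a shorter limit make them.

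The share of SOX4 summits that were shared was 56.7% at a limit of 10 bp, 82.9% with a −log10 q of at least 10 and 60.9% at summits outside soft-masked sequence. That of RELA summits was 14.9% at 10 bp, 15.2% on all chromosomes, 26.6% outside soft-masked sequence and 20.6% without windows with the Alu and tandem words, an alternative added after seeing the data. Over these alternatives the correlation stayed between 0.48 and 0.62, but it was -0.03 at the 102 shared sites with a RELA fold enrichment of 20 or more.

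Among peaks that reached a −log10 q of 10, median fold enrichments were 10.7 and 8.43 for shared and SOX4-only sites in the SOX4 list, and 13.0 and 10.7 for shared and RELA-only sites in the RELA list. Outside soft-masked sequence the RELA medians were 9.98 for shared and 9.23 for RELA-only sites.

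With the upstream region first, introns held 20.2% of shared, 16.0% of SOX4-only and 17.5% of RELA-only summits, and the upstream class 56.2%, 60.5% and 64.2%, so that shared summits had the highest intron share and RELA-only summits the highest upstream share, which were RELA-only and SOX4-only summits before. With protein-coding genes only, introns held 38.6%, 28.4% and 43.5%, and the upstream class 18.6%, 19.8% and 20.01%. At 5 kb the upstream class held 4.20%, 8.64% and 7.16%.

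At 5 kb the protein-coding genes were 171 for shared, 64 for SOX4-only and 874 for RELA-only sites, with 24 pathway genes and 37 SoxC-dependent genes at RELA-only sites. With a −log10 q of at least 10, 58 genes had a SOX4-only site. At a limit of 500 bp, 1 SoxC-dependent gene had a SOX4-only site, against 3 genes, non-coding ones included, at 50 bp.

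With a −log10 q of at least 10, shared sites had a SOX4 untreated summit in 46.9% and a RELA one in 85.625%, SOX4-only sites in 10.6% and 27.3%, and RELA-only sites a RELA one in 3.44%. In windows of 200 bp the SOX consensus stood in 32.8% of shared, 28.4% of SOX4-only and 30.8% of RELA-only windows. Outside soft-masked sequence it stood in 15.2% of shared and 16.0% of RELA-only windows, the reverse of their order over all windows, and at 200 bp SOX4-only fell below RELA-only windows.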
